A study of Mus musculus with 24 samples.

Results

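The 10 genes described here encode the YAP pathway's transcriptional regulators and a set of its targets and feedback proteins in mouse airway epithelium: Yap1, Wwtr1, Tead1, Tead3, Ccn1, Ccn2, Ankrd1, Amotl2, Ajuba and Lats2. They are a named list of 10 among the 35855 genes measured, and the list was drawn up with group differences of the same libraries in view. Their differences between the groups and batches are therefore given as a description. Whether one passed the threshold used for all genes is stated only so that it can be set beside the share of all genes that did, and it supports nothing about the list. RNA was sequenced from tracheal airway epithelial cells of naive wild-type female mice, C57BL/6 by the series title, in 3 groups of 8 libraries: BCAM HI, BCAM LO and differentiated cells. BCAM, basal cell adhesion molecule, is a laminin-binding surface protein, and the series title speaks of subsets of basal cells, the progenitors that sit on the basement membrane. Each library came from 1000 sorted cells, and each group has 5 libraries of batch 1 and 3 of batch 2. The labels name no treatment and no altered allele, give no age, and do not say whether libraries of a group came from separate mice, so p-values measure the spread between these libraries, which may be technical.

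YAP (from Yap1) and TAZ (from Wwtr1) are co-activators without a DNA-binding domain of their own that act on genes by binding the TEAD transcription factors. The Hippo kinases, MST1 and MST2 with their partner SAV1 and LATS1 and LATS2 with MOB1, phosphorylate YAP and TAZ and so hold them in the cytoplasm or mark them for degradation; cell contact, polarity and tension act on this cascade. In the airway, YAP is known for its part in keeping basal cells as progenitors. Because the proteins are controlled after translation, the RNA level of Yap1 or Wwtr1 does not measure their activity.

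Library totals ran from 1824619 to 4440072 estimated counts. The basal markers (Trp63, Krt5, Krt14 and Ngfr in the list used) summed to 1684 to 3368 CPM (TMM-scaled counts per 1e6 counts) in BCAM HI, 1056 to 1410 in BCAM LO and 8.19 to 27.3 in the differentiated group. The differentiated libraries held markers of secretory, thyroid and parathyroid cells. Their 4 secretory markers summed to between 249300 and 361200 CPM in batch 1 and between 9924 and 60030 in batch 2. Thyroid follicle markers summed there to 13620 to 25650 CPM in batch 1 and 48890 to 115800 in batch 2. In BCAM HI they were at 1.47 to 38.9 CPM in batch 1 and 79.5 to 1273 in batch 2, and in BCAM LO at 2.22 to 9.43 and 5.55 to 233. The 3 parathyroid markers (Pth, Gcm2, Chga) summed to 15.2 to 29120 CPM in the differentiated group, against at most 15.2 in BCAM HI and 455 in BCAM LO. Immune markers summed to 1241 to 25220 CPM in the differentiated group, which was lysozyme Lyz2 almost alone (mean 16690 CPM, against 124 in BCAM HI and 1276 in BCAM LO). The leukocyte gene Ptprc had a mean of 1.43 CPM there, 1.51 in BCAM HI and 3.85 in BCAM LO. The 3 BCAM LO libraries of batch 2 also stood apart, with ciliated markers at 101 to 155 CPM where the other 5 had 2.13 to 8.64. The differentiated group had 52.2 to 278 CPM. Secretory markers in the same 3 libraries were at 45640 to 59160 CPM, against 14810 to 36330 in the other 5. In BCAM HI they were at 5834 to 8361 CPM in batch 1 and 14990 to 20570 in batch 2. The highest thyroid (233 CPM) and parathyroid (455 CPM) sums of BCAM LO were also among the 3 BCAM LO libraries of batch 2, though BCAM HI of batch 2 reached a higher thyroid sum (1273 CPM). The part of these other cells in the differences below was not tested.

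The start-proximal DNA of these genes is shown first because TEAD proteins bind the letters GGAATG, whose reverse complement appears below as CATTCC, and because the listed targets are known to be activated through TEAD. RefSeq's promoter table of mouse build GRCm38.p6 held 8 of the 10 genes, with 12 annotated starts; Ccn2 and Tead1 were not matched. Within the 250 bases before a start, GGAATG on either strand was found in 7 of the 8 genes: Ccn1, Ankrd1, Amotl2, Ajuba, Yap1, Wwtr1 and Tead3, and not in Lats2. It was found in 14.4% of all genes listed by RefSeq there, and in 12.6% of the 32851 starts. The AP-1 motif TGANTCA (on both strands, 6.75% of all starts) and the CArG box of serum response factor (1.47% of all starts) were in none of the 8. The genes were chosen as members of the pathway, these matches are letters in a window and not binding sites, and their absence says nothing of a factor. The windows of Ccn1, Ajuba and Yap1 are printed whole, 5′ to 3′ on the gene's strand, with the motif in capitals. They lie at chr3:145649986-145650235 (Ccn1), chr14:54577662-54577911 (Ajuba) and chr9:8004597-8004846 (Yap1), all on the minus strand.
Ccn1: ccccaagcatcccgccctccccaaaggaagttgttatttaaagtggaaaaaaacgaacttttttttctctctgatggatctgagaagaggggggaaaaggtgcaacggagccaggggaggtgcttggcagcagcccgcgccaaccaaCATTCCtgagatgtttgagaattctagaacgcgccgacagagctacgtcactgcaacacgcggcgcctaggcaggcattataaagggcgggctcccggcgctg
Ajuba: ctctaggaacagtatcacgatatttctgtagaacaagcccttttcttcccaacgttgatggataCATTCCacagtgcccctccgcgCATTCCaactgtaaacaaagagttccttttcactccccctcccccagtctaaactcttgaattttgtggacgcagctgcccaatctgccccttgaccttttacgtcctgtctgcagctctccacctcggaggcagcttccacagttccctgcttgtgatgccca
Yap1: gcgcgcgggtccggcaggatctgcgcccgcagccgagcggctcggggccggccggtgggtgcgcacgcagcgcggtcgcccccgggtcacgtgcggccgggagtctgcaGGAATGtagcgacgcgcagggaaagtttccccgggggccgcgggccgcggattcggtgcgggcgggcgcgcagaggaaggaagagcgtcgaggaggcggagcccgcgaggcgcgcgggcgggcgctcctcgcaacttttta

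The Ccn1 match lies 103 to 98 bases before the start. Ajuba has a pair of matches 186 to 181 and 164 to 159 bases before its start, and 1.02% of all starts have 2 or more. In Yap1 the match, on the gene's own strand, lies 141 to 136 bases before the start. RefSeq's starts and the annotated transcripts used for gene names did not always match. The windows of Ankrd1, Amotl2 and the second start of Tead3 also hold transcript sequence of the same gene, so a match there can lie in transcribed DNA. For Ccn1 and Ajuba the bases just after the start were not found in the gene's transcripts. The matches of Ankrd1 (210 to 205 and 123 to 118 bases before the start), Amotl2 (65 to 60), Wwtr1 (170 to 165 before its first start) and the close pair before the second start of Tead3 (123 to 118 and 114 to 109) are shown with 10 bases on each side.
Ankrd1, far match: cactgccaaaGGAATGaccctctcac
Ankrd1, near match: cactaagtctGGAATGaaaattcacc
Amotl2: gaaactctcaCATTCCtggcatagca
Wwtr1: taaactcaaaGGAATGcagataggcg
Tead3, far match: cggccgggctCATTCCgtacattccg
Tead3, near match: tcattccgtaCATTCCggccatcccc

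Levels were compared between genes in TPM, a measure scaled to transcript length and to the same sum in every library. Ccn1, which encodes a secreted matricellular protein that binds integrins, was the most abundant of the 10 in each group by median TPM: 163 in BCAM HI, 68.3 in BCAM LO and 73.1 in the differentiated group. It lay above the second gene in 8, 8 and 7 of the 8 libraries. Next in BCAM HI came Ccn2, the closely related matricellular protein CTGF, with a median of 51.9 TPM, and Ajuba with 31.3 TPM. Ccn2 exceeded Ajuba in only 5 of 8 libraries there and in 4 of 8 in BCAM LO. In BCAM HI their order followed batch. Batch 1 had Ccn2 at 44.45 to 64.3 TPM and Ajuba at 18.4 to 31.8, and batch 2 had them at 8.6 to 12.3 and 34.5 to 45.1. Amotl2, Tead1 and Yap1 followed in BCAM HI at medians of 16.7, 16.2 and 13.3 TPM, with each above the next in 6 of 8 libraries.

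Lats2, Wwtr1 and Tead3 formed a lower tier at 7.26, 4.15 and 3.92 TPM in BCAM HI, and Wwtr1 and Tead3 could not be ranked there (4 of 8 libraries each way). In the differentiated group the order differed below the first 2 genes: Amotl2 came after them at a median of 18.1 TPM, while Ajuba ranked behind Lats2 and Wwtr1 at 2.60 TPM. Yap1 exceeded Wwtr1 per length in 8 of 8 BCAM HI, 8 of 8 BCAM LO and 7 of 8 differentiated libraries, with median TPM ratios of 2.96, 2.83 and 1.38. Tead1 exceeded Tead3 in 8, 8 and 6 libraries, with median ratios of 3.69, 2.93 and 2.27.

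**Figure D1:**
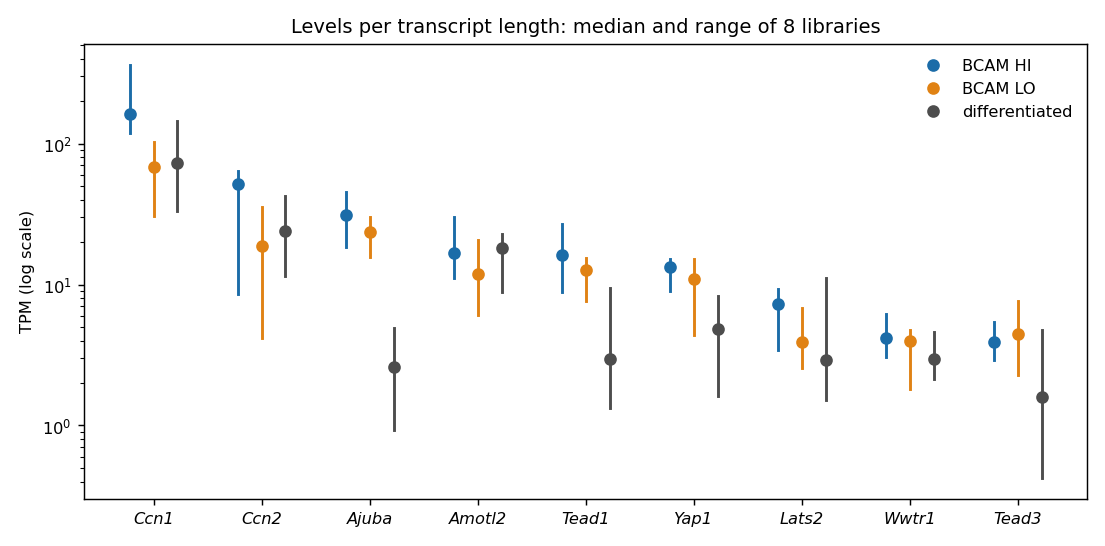
Median (points) and lowest to highest value (lines) of TPM over the 8 libraries of each group, on a log axis, for 9 genes ordered by their BCAM HI median. Ccn1 leads in each group, and the medians of Ajuba and Tead1 in differentiated cells, 2.60 and 2.98 TPM, lie furthest below those of the BCAM groups; Ankrd1, with a highest value of 0.912 TPM, is not drawn.

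Between groups, levels are given in CPM scaled by TMM factors, which allow for the few secretory and thyroid transcripts that take much of the differentiated libraries. Yap1 had 34.8 CPM at the lowest, 49.1 at the median and 55.4 at the highest in BCAM HI, 20.2, 45.5 and 68.9 in BCAM LO, and 12.4, 29.5 and 38.4 in the differentiated group. Over both batches the BCAM groups overlapped fully, and most differentiated libraries lay below most BCAM HI libraries, with a small overlap. The fitted log2 fold change was 0.73 (SE 0.21) for BCAM HI over differentiated, 0.50 (SE 0.21) for BCAM LO over differentiated and 0.23 (SE 0.20) for BCAM HI over BCAM LO, higher in 7, 5 and 7 of 8 same-numbered pairs of libraries. By batch, the last of these was -0.07 (SE 0.19) in batch 1 and 0.91 (SE 0.26) in batch 2. That change between batches did not pass the threshold used for all genes. In bulk samples such as these, fewer cells that make an RNA and less of it per cell cannot be told apart.

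Wwtr1 did not follow Yap1. Its lowest, median and highest values were 10.6, 16.9 and 23.1 CPM in BCAM HI, 8.57, 18.5 and 21.1 in BCAM LO, and 16.9, 22.1 and 25.3 in the differentiated group. The 3 groups overlapped, with the differentiated libraries toward the top, and the log2 fold changes were -0.32 (SE 0.18) for BCAM HI and -0.40 (SE 0.19) for BCAM LO against differentiated. Neither passed the threshold used for all genes, a Benjamini-Hochberg adjusted p under 0.05 in edgeR's quasi-likelihood test. On log2(TPM + 1) both were positive, 0.32 (SE 0.20) and 0.10 (SE 0.20), again without passing. The median of all tested genes on that scale was 0.64 and 0.40, so both values lay below it. The sign thus depended on the scale, while the position below the median of all genes did not.

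Tead1, the more abundant of the 2 listed TEAD factors, had 48.1, 54.5 and 70.3 CPM (lowest, median, highest) in BCAM HI, 37.9, 51.5 and 77.3 in BCAM LO and 19.8, 23.9 and 32.8 in the differentiated group. Every BCAM library lay above every differentiated one, while BCAM HI and BCAM LO overlapped. The log2 fold changes were 1.14 (SE 0.14) and 1.01 (SE 0.14) over differentiated and 0.13 (SE 0.14) between the BCAM groups. Groups that do not overlap in this direction were found for 6.1% of all 12211 tested genes in the first of these comparisons and for 3.44% in the second.

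Tead3 was the least abundant tested member in CPM, with 5.33, 6.77 and 12.3 in BCAM HI, 6.05, 10.02 and 11.2 in BCAM LO and 1.86, 5.31 and 10.2 in the differentiated group. All 3 groups overlapped. Its highest median was in BCAM LO, with log2 fold changes of -0.36 (SE 0.25) for BCAM HI against BCAM LO and 0.66 (SE 0.26) for BCAM LO over differentiated, and no comparison passed the threshold.

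Ccn1 was the member that separated the BCAM groups. It had 207, 274 and 605 CPM (lowest, median, highest) in BCAM HI, 57.8, 122 and 187 in BCAM LO and 118, 201 and 431 in the differentiated group. The lowest BCAM HI library was above the highest BCAM LO library, a separation in this direction seen for 0.5% of tested genes, and the differentiated libraries lay between and overlapped both. The log2 fold change was 1.42 (SE 0.27) for BCAM HI over BCAM LO, higher in 8 of 8 same-numbered pairs, 0.63 (SE 0.27) for BCAM HI over differentiated, also higher in 8 of 8, and -0.79 (SE 0.27) for BCAM LO against differentiated. In batch 1 alone the first of these was 1.57 (SE 0.43) and in batch 2 alone 1.18 (SE 0.17), and with the 5 libraries a group of batch 1 alone it did not pass the threshold. The BCAM HI difference from differentiated cells did not pass, but did in 5 other settings and without any 1 of 3 libraries. The BCAM LO difference from differentiated cells passed, but not without differentiated replicate 1 (-0.59) or replicate 6 (-0.73), nor in 6 other settings, among them no filter on low counts and log2(TPM + 1) (-0.20).

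Ccn1 is also an immediate early gene, induced within minutes of serum or mechanical stimuli, and some of the other immediate early genes were higher in BCAM HI as well. Of 12 such genes, 4 passed the threshold between the BCAM groups, where 2.43% of all tested genes were higher: Fos (log2 fold change 0.45), Jun (0.43), Ier3 (0.51) and Btg2 (0.51). The other 8 did not pass, and 3 of them, Ier2, Dusp1 and Egr1, had values below 0, the lowest at -0.32 for Ier2. The median over the 12 was 0.27, against 0.00 over all genes tested. The summed CPM of the 12 ran from 13370 to 16420 in BCAM HI, from 13340 to 14290 in BCAM LO of batch 1, from 9101 to 11830 in BCAM LO of batch 2, and from 10620 to 14120 in the differentiated group. The part of this list in the Ccn1 difference was not tested.

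Ccn2 had 5.04, 35.8 and 47.6 CPM in BCAM HI, 6.43, 19.4 and 44.6 in BCAM LO and 15.6, 28.5 and 37.4 in the differentiated group. The spread within the BCAM groups covered the differentiated group, and no comparison passed the threshold: log2 fold changes were 0.60 (SE 0.27), -0.05 (SE 0.25) and -0.65 (SE 0.28) for BCAM HI over BCAM LO, BCAM HI over differentiated and BCAM LO over differentiated. Its spread followed batch, as given below.

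Ankrd1, a muscle and stress-responsive ankyrin repeat protein often used as a YAP readout, was barely detected and was not among the genes tested. BCAM HI held 16 counts over 5 of 8 libraries, BCAM LO 6 counts over 3 and the differentiated group 0 counts. With 3 counts taken as the group's floor, Ankrd1 was at least 2.89-fold higher in BCAM HI than in differentiated cells, a bound that allows for the counting error of the 0 but not for that of the 16 or for the spread between libraries. The 6 counts of BCAM LO lay, for the depth of that group, close to the 3 that a count of 0 allows, and no fold is given for them. Reads were amplified and carry no molecular identifiers.

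Amotl2, Lats2 and Ajuba encode proteins that restrain or feed back on the pathway: the angiomotin AMOTL2 binds YAP, LATS2 phosphorylates it, and the LIM protein AJUBA inhibits the LATS kinases. Ajuba showed the widest difference of the 9 tested genes. It had 43.5, 66.2 and 85.6 CPM in BCAM HI, 47.3, 56.4 and 76.3 in BCAM LO and 3.41, 9.38 and 19.1 in the differentiated group, so that both BCAM groups lay wholly above the differentiated libraries, as 6.1% (BCAM HI) and 3.44% (BCAM LO) of all genes did, and overlapped each other. The log2 fold changes were 2.61 (SE 0.22) and 2.44 (SE 0.21) over differentiated and 0.17 (SE 0.19) between the BCAM groups.

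Amotl2 was lower in the BCAM groups. Its values were 17.8, 24.2 and 38.8 CPM in BCAM HI, 17.7, 23.6 and 33.9 in BCAM LO and 24.1, 34.4 and 57.6 in the differentiated group, with overlap throughout. The log2 fold changes were -0.43 (SE 0.17) and -0.60 (SE 0.18) against differentiated and 0.17 (SE 0.17) between the BCAM groups. The first of these passed the threshold narrowly, lost it without any 1 of 15 of the 24 libraries, and was 0.03 on log2(TPM + 1), a scale on which the median of all tested genes was 0.64. The second passed with each of the 24 libraries left out in turn but not in 5 other settings, among them log2(TPM + 1) (-0.48).

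Lats2 differed little: 12.6, 19.9 and 29.6 CPM in BCAM HI, 12.4, 17.1 and 26.0 in BCAM LO and 12.1, 17.9 and 23.7 in the differentiated group. The groups overlapped almost entirely, and the log2 fold changes were 0.15 (SE 0.18), 0.23 (SE 0.19) and 0.08 (SE 0.19) for BCAM HI over BCAM LO, BCAM HI over differentiated and BCAM LO over differentiated.

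**Figure D2:**
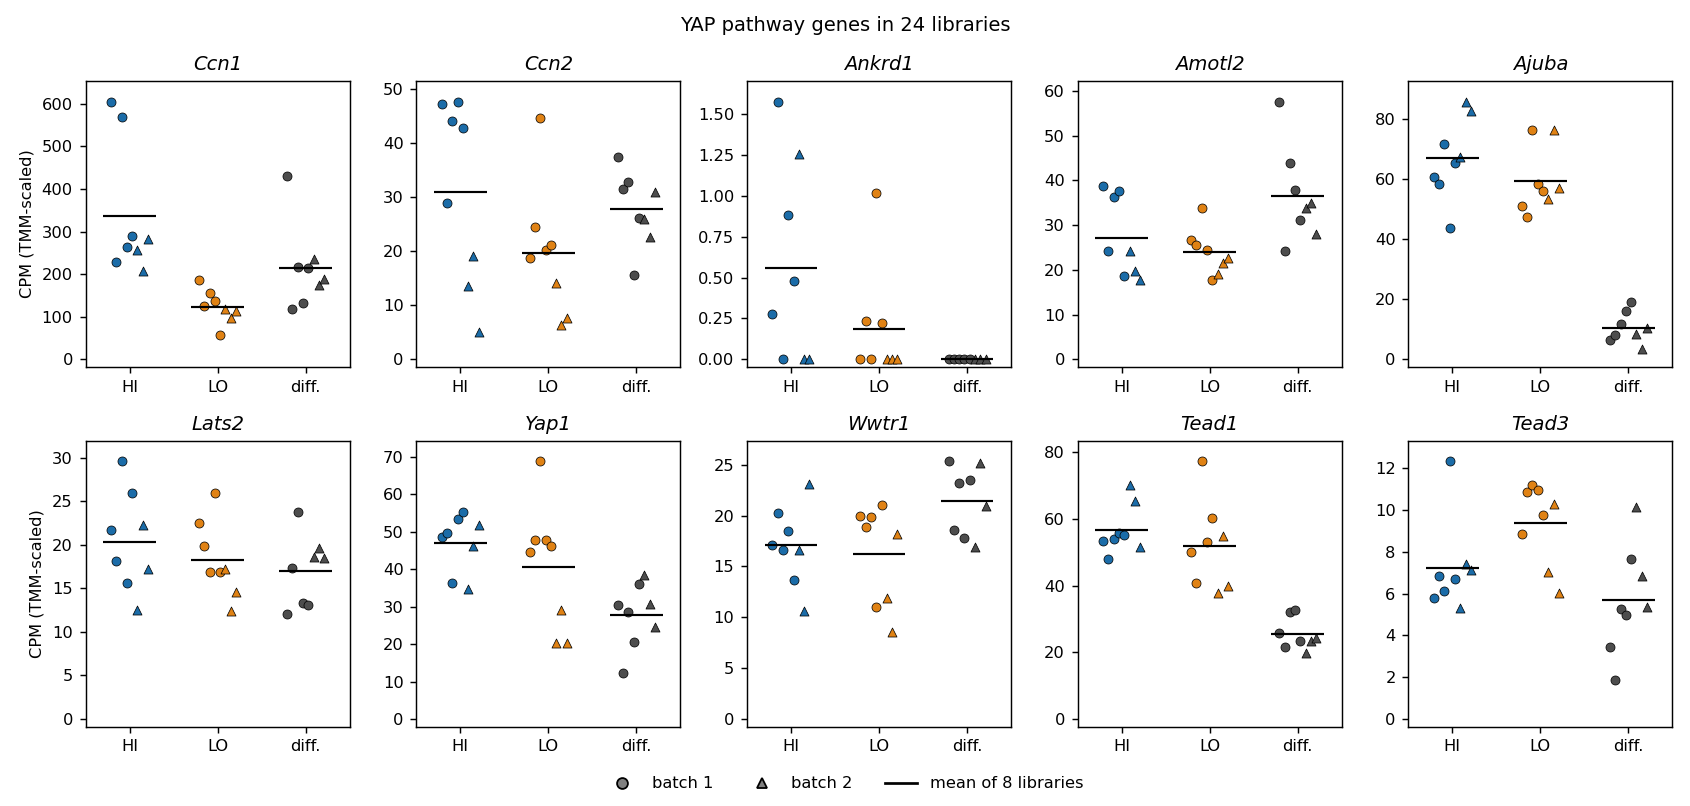
CPM (TMM-scaled, linear axes from 0, a separate scale for each gene) of the 10 genes in the 24 libraries, with circles for batch 1, triangles for batch 2 and a bar at the mean of 8. Ccn1 separates BCAM HI (207 to 605 CPM) from BCAM LO (57.8 to 187), Ajuba and Tead1 separate both from the differentiated libraries, and the batch 2 triangles of Ccn2 in both BCAM groups and of Yap1 in BCAM LO sit low.

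Counted over the list, 9 of the 10 genes were tested. Between BCAM HI and BCAM LO, 1 of 9 passed the threshold (Ccn1, higher), where 7.02% of all 12211 tested genes did. Between BCAM HI and differentiated, 3 were higher (Ajuba, Yap1, Tead1) and 1 lower (Amotl2), where 41.3% of all genes passed. For BCAM LO against differentiated, 2 were higher (Ajuba, Tead1) and 2 lower (Ccn1, Amotl2), where 33.5% passed. These counts describe genes chosen on the same contrasts and the last 2 comparisons share the differentiated libraries. Median log2 fold changes over the 9 were 0.17, 0.30 and 0.08, beside 0.00, 0.02 and 0.02 over all genes tested.

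**Figure D3:**
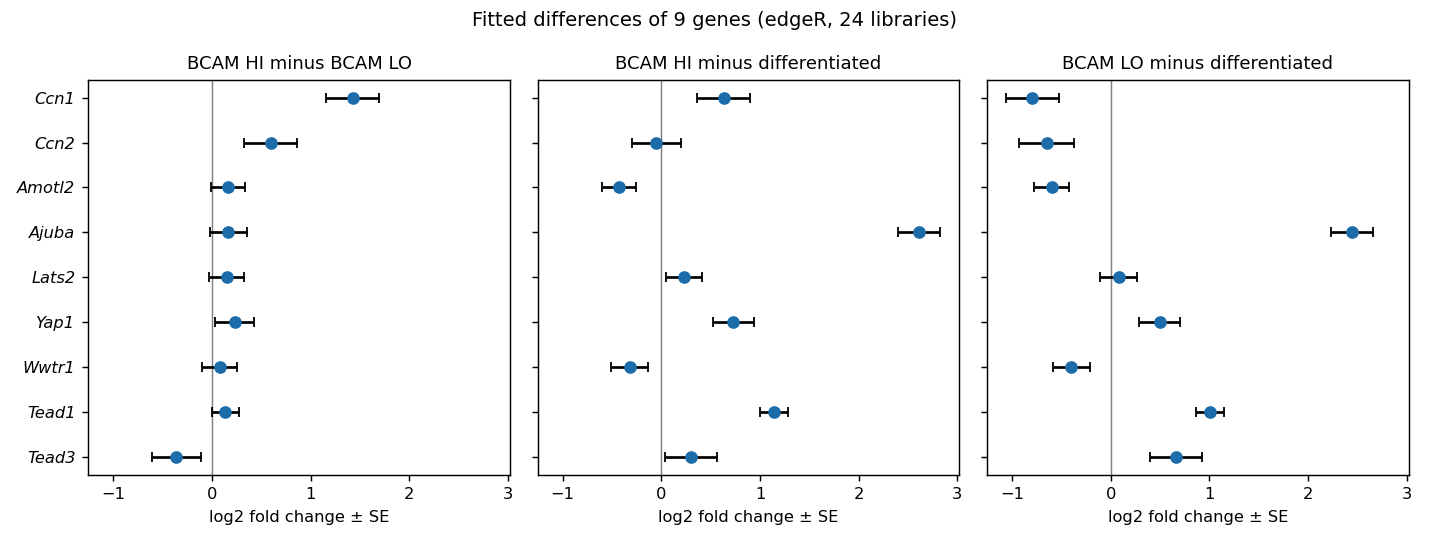
Fitted log2 fold change with its standard error (bars) for the 9 tested genes in the 3 comparisons, from edgeR over 24 libraries with batch as a covariate. Ccn1 lies at 1.42 in the comparison of the BCAM groups, where the other 8 lie between -0.36 and 0.60, and Ajuba lies at 2.61 and 2.44 over differentiated cells.

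The dependence of a group difference on batch was fitted over all genes and read for the 27 pairs of a tested member and a comparison, again as a description, since values by batch were known when the list was drawn up. In 2 of the 27, both in comparisons with differentiated cells, the change of the difference between batches passed the threshold, and in the comparison of the BCAM groups none did, where 1.06% of all genes passed. In BCAM HI, Ccn2 had 28.9 to 47.6 CPM in batch 1 and 5.04 to 19.1 in batch 2, while the differentiated libraries had 15.6 to 37.4 and 22.6 to 30.9. BCAM HI thus overlapped the differentiated libraries from above in batch 1 and lay wholly below them in batch 2, as 21.6% of all genes did with these 3 libraries against 3, with log2 fold changes of 0.55 (SE 0.24) and -1.04 (SE 0.42). The change between batches was -1.60 on the log2 scale (SE 0.46, edgeR interaction), in a comparison where 8.69% of all genes passed.

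Yap1 in BCAM LO had 44.7 to 68.9 CPM in batch 1 and 20.2 to 29.2 in batch 2, and in differentiated cells 12.4 to 36.0 and 24.7 to 38.4. All 5 BCAM LO libraries of batch 1 were above all 5 differentiated ones, as for 10.2% of all genes, and those of batch 2 overlapped them, with log2 fold changes of 0.97 (SE 0.21) and -0.41 (SE 0.27). The change was -1.38 (SE 0.35, edgeR interaction), in a comparison where 11.4% of all genes passed. Across the groups Ccn2 was also the only tested member whose batch term passed the threshold, at a log2 fold change of -1.03 (SE 0.25) for batch 2 over batch 1, where 21.4% of all genes passed.

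Ccn2 is also made by fibroblasts. The 6 fibroblast markers summed to 397 to 672 CPM in BCAM HI of batch 1 and 173 to 224 in batch 2, and none of the 6 was at 0 in all libraries of either set. Nearly all of that was decorin (Dcn, 393 to 667 CPM and then 160 to 206), while Col1a1, Col1a2, Col3a1 and lumican (Lum) had higher means in batch 2 than in batch 1 at low levels, for example 3.92 against 2.48 CPM for Col1a2. The sum in BCAM HI thus followed Dcn and not the collagens, which each stayed at or below 6.85 CPM in all 8 BCAM HI libraries. Pdgfra had a mean of 0.88 CPM in batch 1 and 0.42 in batch 2. In BCAM LO, Ccn2 was at 18.7 to 44.6 CPM in batch 1 and 6.43 to 14.1 in batch 2. The 6 markers summed there to 240 to 382 and 66.2 to 302 CPM, with Col3a1 up to 45.8 and 49.9. The BCAM LO libraries with low Yap1 were those with raised ciliated and secretory markers. The part of any of these lists in these differences was not tested, and the sources used here do not say what a batch was.

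The estimated counts of a gene are sums over its annotated transcripts, which matters for some members. Ccn1 has 1 transcript. For Ccn2, the full transcript Ccn2-201 of 2398 bases held 72.5% of the gene's counts over all libraries, but the short Ccn2-202 of 343 bases held a median of 73.2% of its TPM in BCAM HI, so the TPM rank of Ccn2 rests largely on that short model. Of the Ajuba counts, 67.9% were assigned to Ajuba-202, a retained intron transcript, and 32.1% to the coding Ajuba-201. Yap1-202 held 77.5% and Tead1-202 87.1% of the counts of their genes.

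The rest of the pathway was described with 55 further genes in 4 lists by role, of which 45 were tested. These lists too were drawn up with earlier results of these data known. The genes named from them were picked by their call or the size of their change in the same comparisons. Their counts and p-values are therefore a description and support nothing about the lists. Between the BCAM groups 3 were higher in BCAM HI and 2 lower. Against differentiated cells, 22 of 45 were higher in BCAM HI and 3 lower, and 21 were higher in BCAM LO and 3 lower. All genes passed in 2.43% (higher) and 4.59% (lower), 19.4% and 22%, and 16.3% and 17.1% of cases in these 3 comparisons. Median log2 fold changes of the 45 were 0.03, 0.47 and 0.50. On log2(TPM + 1) the counts were 6 higher and 0 lower, 34 and 1, and 30 and 0, on a scale where the share of higher genes among all called genes went from 34.7% to 78.2%, from 46.8% to 88.3% and from 48.8% to 86.6%.

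A target list (17 genes besides the listed ones that are known as YAP targets in cultured cells) had 16 tested members, and 10 were higher in BCAM HI and 11 in BCAM LO than in differentiated cells, with none lower. Of all genes, 19.4% and 16.3% were higher and 22% and 17.1% lower in these comparisons. Axl, a receptor tyrosine kinase, had the widest difference: 54.6, 105 and 153 CPM (lowest, median, highest) in BCAM HI, 16.8, 102 and 136 in BCAM LO and 1.58, 6.78 and 21.3 in the differentiated group. BCAM HI did not overlap the differentiated libraries (6.1% of all genes lay above them in this way), while the lowest BCAM LO library did. Its log2 fold changes were 3.32 (SE 0.43, edgeR, adjusted p = 1.94e-06) and 3.01 (SE 0.44, edgeR, adjusted p = 1.48e-05). The RNA-binding protein gene Rbms3 was higher by 2.44 (SE 0.13, edgeR, adjusted p = 1.85e-14) in BCAM HI and 1.89 (SE 0.13, edgeR, adjusted p = 7.46e-12) in BCAM LO.

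Within the target list, 2 of 16 also differed between the BCAM groups, where 7.02% of all genes did. Rbms3 was 0.55 higher in BCAM HI on the log2 scale (SE 0.12, edgeR, adjusted p = 0.0046), at 90.9 to 140 CPM against 42.8 to 102. Ptpn14, a phosphatase that binds YAP, was 0.51 higher (SE 0.14, edgeR, adjusted p = 0.0261), at 130 to 179 CPM against 57.8 to 149. The 2 groups overlapped for both genes. The list's median was 0.35 between the BCAM groups, beside 0.00 over all genes.

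Of the adhesion and scaffold proteins upstream of the kinases, 14 of 18 were tested. In each BCAM group 6 were higher and 2 lower than in differentiated cells, where 41.3% (BCAM HI) and 33.5% (BCAM LO) of all genes passed. The angiomotin Amotl1 had 155, 191 and 208 CPM in BCAM HI, 89.2, 171 and 203 in BCAM LO and 10.4, 18.2 and 26.6 in the differentiated group, without overlap between either BCAM group and the last, as for 6.1% and 3.44% of all genes. It was higher by 3.29 (SE 0.16, edgeR, adjusted p = 1.95e-15) and 2.96 (SE 0.16, edgeR, adjusted p = 4.92e-14), in the same libraries where its relative Amotl2 had log2 fold changes of -0.43 and -0.60. The protocadherin Fat2 was higher by 3.18 (SE 0.23, edgeR, adjusted p = 5.66e-11) and 2.68 (SE 0.23, edgeR, adjusted p = 2.14e-09).

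The 2 lower scaffold genes were Crb3, an apical polarity protein, and Wwc1, which encodes the LATS-binding protein KIBRA. Crb3 had 9.72, 17.5 and 25.8 CPM in BCAM HI, 20.7, 30.4 and 42.3 in BCAM LO and 31.6, 45.2 and 66.0 in the differentiated group, so that BCAM HI lay wholly below the last, as 7.3% of all genes did. Its log2 fold changes were -1.40 (SE 0.18, edgeR, adjusted p = 3.76e-07) and -0.67 (SE 0.18, edgeR, adjusted p = 0.00476) against differentiated, and -0.73 (SE 0.18, edgeR, adjusted p = 0.0114) between BCAM HI and BCAM LO. Wwc1 was at -1.11 (SE 0.14, edgeR, adjusted p = 1.13e-07) in BCAM HI and -0.75 (SE 0.14, edgeR, adjusted p = 6.59e-05) in BCAM LO. On log2(TPM + 1) Wwc1 was at -0.51 and -0.285 and passed in neither comparison. There Crb3 was at -0.18 in BCAM LO against differentiated and -0.43 between the BCAM groups, also without passing. The medians of all genes on that scale were 0.64, 0.40 and, between the BCAM groups, 0.23. In batch 2 alone Crb3 in BCAM LO against differentiated was -0.07 (SE 0.27).

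In the kinase module, 13 of 14 genes were tested, and 5 were higher and 1 lower in BCAM HI than in differentiated cells, 3 and 1 in BCAM LO. Of all genes, 41.3% and 33.5% passed in these comparisons. Between the BCAM groups only Taok2 and Taok3 passed, in opposite directions, where 7.02% of all genes passed. They encode TAO kinases, which act on MST1 and MST2, and the third TAO kinase gene, Taok1, did not pass (log2 fold change 0.04, SE 0.16). Taok3 had 9.99, 14.5 and 19.5 CPM in BCAM HI and 17.2, 25.3 and 30.0 in BCAM LO, a log2 fold change of -0.79 (SE 0.17, edgeR, adjusted p = 0.00457). Taok2 had 45.0, 69.8 and 120 CPM against 31.6, 47.3 and 83.2, a log2 fold change of 0.56 (SE 0.16, edgeR, adjusted p = 0.0262). Both pairs of ranges overlapped. The Taok2 and Ptpn14 calls did not survive the removal of any 1 of 6 and of 4 libraries, and without the 3 BCAM LO libraries of batch 2 none of the 5 calls between the BCAM groups remained. Taok3 was also lower than in differentiated cells, by -1.25 (SE 0.18, edgeR, adjusted p = 1.26e-06) in BCAM HI and -0.46 (SE 0.17, edgeR, adjusted p = 0.0396) in BCAM LO, the second lost without any of 11 libraries. On log2(TPM + 1), where the median of all genes was 0.64, the first was -0.24 and did not pass. Taok3 between the BCAM groups was -0.42 there, also without passing. Of 6 further TEAD and VGLL genes 2 were tested, and 1 was higher in each BCAM group than in differentiated cells: Vgll4, a TEAD-binding repressor named after its values were seen, with log2 fold changes of 0.47 and 0.58.

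**Figure D4:**
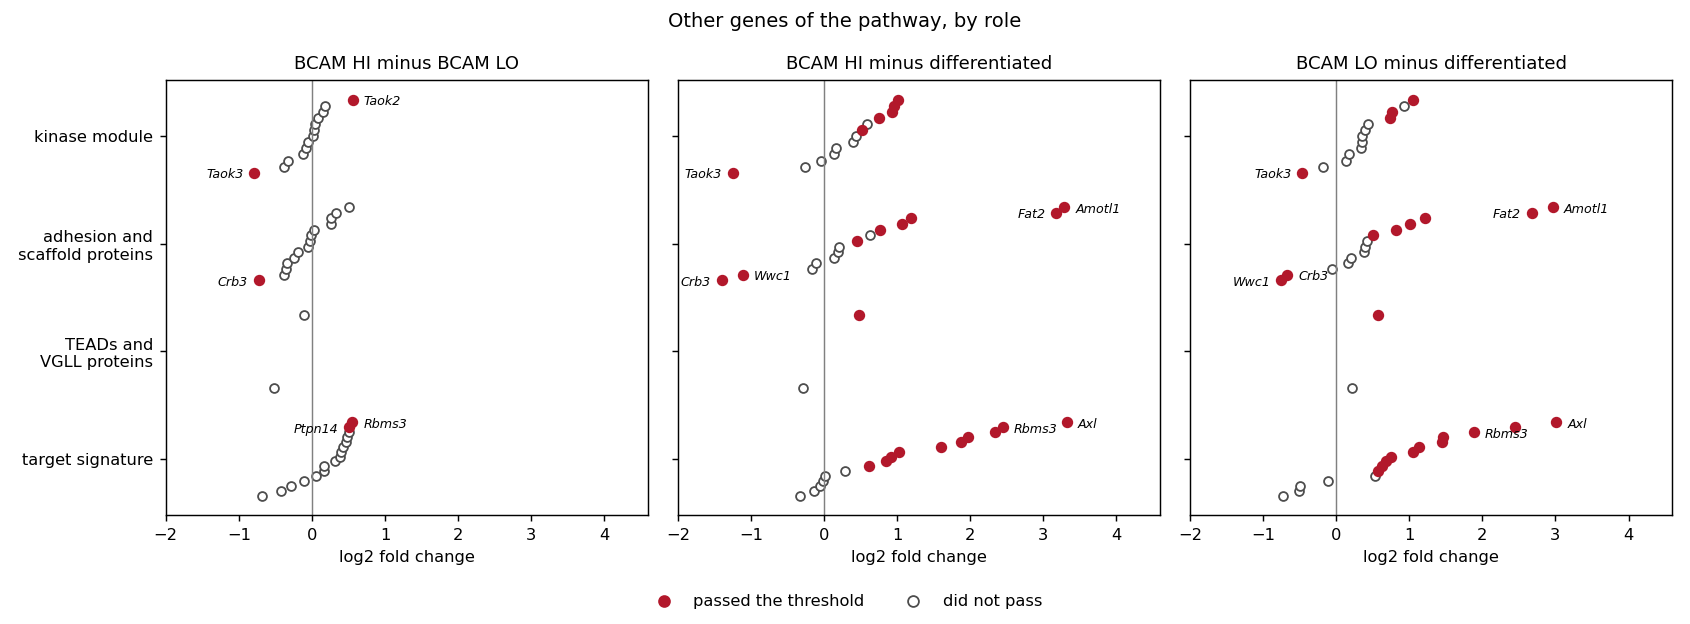
Fitted log2 fold changes of the 45 tested genes of the 4 role lists in the 3 comparisons, filled where the edgeR adjusted p was under 0.05 and spread by rank within a list, with the genes described in the text named. The comparisons with differentiated cells hold 22 and 21 filled points right of 0 and 3 and 3 left of it, and the comparison of the BCAM groups holds 3 and 2.

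Whether members vary together inside a group was tested for 5 pairs (Ccn1 with Ccn2, Ccn1 with Fos, Ccn2 with Amotl2, Yap1 with Wwtr1, Yap1 with Tead1) in each group of 8, 15 relations in log2 CPM. Pearson's r ran from -0.52 to 0.74, and none passed after Benjamini-Hochberg adjustment over the 15, with 1 of 15 at an unadjusted exact permutation p under 0.05 by r and 1 by Spearman's rho. By rho it was Ccn2 with Amotl2 in BCAM HI (rho = 0.81, exact permutation p = 0.0218, adjusted 0.327; r = 0.67, exact permutation p = 0.0584, adjusted 0.292). By r it was Yap1 with Tead1 in BCAM LO (r = 0.74, two-sided exact permutation p = 0.0350, adjusted 0.292; Spearman's rho = 0.67, exact permutation p = 0.0831, adjusted 0.545). Without the 2 libraries farthest from the median of Yap1, which narrows the range of Yap1, r was 0.45. With each batch's mean removed and all 8 libraries kept it was 0.83 (permutation p = 0.0173, adjusted 0.259). That p is approximate and not exact, because libraries were shuffled across batches after the means were removed. For Ccn2 with Amotl2 in BCAM HI, removing each batch's mean lowered rho to 0.50 and r to 0.37. On log2(TPM + 1), rho of that pair was 0.21 and r 0.28. Batches of 5 and 3 libraries are too small for r within a batch.

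Over all 24 libraries, and as a description in which group, batch and depth are shared, the genes with the pattern most like that of Ccn1 in log2 CPM were Syde1 (r = 0.81), Mcm6 (0.77), Heg1 (0.66), Dph3 (0.65) and Zkscan6 (0.65). For Syde1 and Mcm6, r was 0.74 and 0.76 once group and batch means were removed, and for the other 3 it was 0.43 to 0.54. For Yap1 they were Lrig3 (r = 0.83), Spry1 (0.83), Irs2 (0.80), Mga (0.80) and Cacna2d1 (0.80). Their r without group and batch means was 0.55 to 0.64.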

How the data were processed

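All 24 libraries were used. Each held 1000 sorted cells, per the labels' protocols, lysed in TCL buffer and taken through the SmartSeq2 cell population protocol, with paired reads of 38 bp on a NextSeq500. Per the file headers, each of the tables the authors deposited lists, for every transcript, its length and effective length, a TPM value and an estimated count. The submitters' processing notes name kallisto 46.1, Picard and build GRCm39; the sources used here do not give their roles, the index or the annotation release. The deposited estimated counts carry no normalization, and TPM, also deposited, are relative to transcript length and library.

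Of 117497 transcripts, 116374 were matched by Ensembl identifier to GENCODE M21 (build GRCm38), which supplied gene names; the other 1123 held 0.317% to 0.595% of a library's counts and were left out. Printed coordinates are those of RefSeq's table on GRCm38.p6 and not of the authors' build. Estimated counts were summed per gene and rounded to whole numbers. Counting with regard to strand is not stated.

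After edgeR's default filter for low counts, 12211 genes were fitted in edgeR 4.0.16 (R 4.3.3) with TMM factors, a mean per group and batch as a covariate, and tested by quasi-likelihood F-test, two-sided, with Benjamini-Hochberg adjustment over all tested genes and a threshold of 0.05. Standard errors are the size of the log2 fold change over the root of F. Dependence on batch was tested in a further fit with a separate mean for each group within each batch. The fitting and permutation code was tested on simulated data. CPM are TMM-scaled. TPM alternatives used limma 3.58.1 with a pseudocount of 1 or 0.1; DESeq2 1.42.0 was another alternative. Correlations used scipy 1.17.1.

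The listed genes, the role lists and the marker lists were chosen with earlier results of these data known. Named were all 10 listed genes, each other pathway gene called between the BCAM groups, and, per direction in each comparison with differentiated cells, the 4 called genes with the largest change and a mean of at least 10 CPM in a group; for likeness of pattern, the 5 genes with the highest r. Pals1 was looked up as Mpp5. A planned correlation of Ccn1 with Ankrd1 was left out because Ankrd1 had 16, 6 and 0 counts in the groups.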

Additional observations from a re-analysis of the deposited data

Results flagged for a closer look

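Single libraries far from the other 7 of their group were looked for in 54 sets of gene and group, where chance alone gives about 1 in 20. Among the listed genes, Ccn1 in differentiated replicate 1 was at 430.8 CPM (next highest 235.5), Ccn2 in BCAM LO replicate 3 at 44.61 CPM (24.36) and Tead3 in BCAM HI replicate 4 at 12.34 CPM (7.43). Among the other pathway genes, Taok2 in BCAM LO replicate 8 was at 83.21 CPM (54.69), Ptpn14 in differentiated replicate 3 at 62.26 CPM (44.44) and Fat2 in BCAM HI replicate 7 at 535.5 CPM (394.9). Ccn1 was highest in replicate 1 of each group: 605 CPM in BCAM HI, 187 in BCAM LO and 430.8 in differentiated cells. Without differentiated replicate 1, the Ccn1 log2 fold change was 0.84 for BCAM HI and -0.59 for BCAM LO against differentiated; the first then passed the threshold and the second did not.

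Group differences that changed from batch 1 to batch 2 by the edgeR interaction test were looked for among the listed and named genes only. Besides the listed genes Ccn2 (-1.60 on the log2 scale for BCAM HI against differentiated) and Yap1 (-1.38 for BCAM LO against differentiated), they concerned 3 named pathway genes. Pathway genes not named passed too, in both directions, such as Myof (1.67) and Asap1 (-2.40) for BCAM HI against differentiated. Of all genes, 8.69% passed for BCAM HI and 11.4% for BCAM LO against differentiated, and 1.06% between the BCAM groups. Axl changed by -2.46 for BCAM HI (adjusted p = 4.28e-04) and by -3.46 for BCAM LO (adjusted p = 7.80e-06) against differentiated, with BCAM LO at 86.2 to 136 CPM in batch 1 and 16.8 to 45.4 in batch 2, and differentiated cells at 1.58 to 7.22 and 8.64 to 21.3. Amotl1 changed by -1.06 for BCAM LO against differentiated (adjusted p = 0.00508). Fat2 changed by -1.71 for BCAM LO against differentiated (adjusted p = 3.69e-05) and by 0.97 for BCAM HI against BCAM LO (adjusted p = 0.0438). The Yap1, Axl, Amotl1 and Fat2 changes were all in comparisons with the BCAM LO or differentiated libraries, whose other markers in batch 2 are given above. BCAM HI differed by batch as well. Its Axl values were 99.1 to 153 CPM in batch 1 and 54.6 to 77.2 in batch 2. Its Fat2 values were 308 to 370 and 385 to 535.5. These enter the Axl change for BCAM HI and the Fat2 change between the BCAM groups. The part of other cells in any of these changes was not tested.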

How the results depend on the processing

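With 1 library left out, all 648 log2 fold changes of listed genes moved by less than the spread between libraries. Leaving out 1 of 8 libraries can hardly move a mean that far, so this is no evidence of stability. Calls did change, as for Amotl2 in BCAM HI against differentiated, lost without any 1 of 15 of the 24 libraries. Of 375 log2 fold changes of listed genes under other settings, 329 moved by less than that spread and 44 by more. The 2 others, called ones that changed sign, were Amotl2 in BCAM HI against differentiated, 0.029 and 0.03 with TPM pseudocounts of 1 and 0.1. Of 266 values of named pathway genes under other settings, 224 kept their call and 40 lost it. The 2 others changed sign: Taok3 in BCAM LO against differentiated was 0.18 and 0.20 with those pseudocounts. The r of Yap1 with Tead1 in BCAM HI went from -0.52 to 0.092 in TPM. The TPM scales moved the median of all genes by up to 0.75. Listed genes called fell to 0 of the BCAM comparison in batch 1 alone (2 at an unadjusted p under 0.05) and to 2 for BCAM HI against differentiated in batch 2 alone. Other pathway genes called between the BCAM groups went from 5 to 3 (TPM with pseudocount 0.1; also no batch term), 1 (transcript length offsets), 8 (only those groups; also without the differentiated libraries of batch 2, chosen after seeing the data) and 0 without the BCAM LO libraries of batch 2, likewise added (12 at an unadjusted p under 0.05). For BCAM LO against differentiated they were 13 in batch 2 alone. With 1 library left out, calls between the BCAM groups ran from 3 to 7 (outside 1.5 times 5 without BCAM HI 7, BCAM LO 6 or BCAM LO 7), and listed genes that depended on batch from 1 to 3 (1 without differentiated 6).

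Same-numbered libraries of different groups correlated at 0.032 to 0.176 (median 0.078), and those of other numbers in the same batch at -0.144 to 0.074 (median -0.019). Of 24 libraries, 23 correlated best with their own number, so same-numbered libraries were more alike than others. Most same-numbered pairs were under the 0.1 set for pairing, and the main fit does not use the number. With the replicate number as a block, 1, 5 and 4 listed and 6, 27 and 25 other pathway genes were called in the 3 comparisons; the listed gene gained was Ccn1, BCAM HI over differentiated. Depth limits Ankrd1 and Tead3.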
